A study of Mus musculus with 2 samples.

Results

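The cells described here are barcodes of 2 single-cell RNA libraries from mouse embryonic hindlimb that carried RNA of macrophage genes. A barcode was a member when it had at least 1000 detected genes, at most 10% of its unique molecular identifiers (UMIs) from mitochondrially encoded genes, and at least 8 UMIs summed over Csf1r, C1qa, C1qb, C1qc, Cx3cr1, Tyrobp and Fcer1g. The rule found 71 members among 17790 kept barcodes of dual-enSERT-1, a share of 0.399% with an exact 95% binomial interval of 0.312% to 0.503%. It found 48 members among 6683 kept barcodes of dual-enSERT-2, a share of 0.718% with an interval of 0.530% to 0.951%. The 119 members were chosen on these UMI counts out of 24473 kept barcodes, so their macrophage genes are a description and not a finding.

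The study compared reporter constructs in which the ZRS enhancer drives a fluorescent protein gene inserted at the H11 locus of FVB mice. Both libraries held dissociated hindlimb cells of a transgenic embryo (stage E11.5, mid-gestation), freed with collagenase II, and both genotypes carried ZRS-mCherry, the unmutated enhancer, together with ZRS404G>A-eGFP, the enhancer with a single-base variant. The label of the dual-enSERT-2 genotype adds an element B outside each reporter and an element SI in the middle, neither of which the labels spell out. Per the series' design each construct was represented by 1 embryo and 1 library, so embryo and construct cannot be told apart and no test across libraries was possible. All intervals below are 95% intervals, exact Poisson intervals for levels and exact binomial intervals for shares, and cover counting error only.

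The ZRS is the distal enhancer that switches on Shh in the posterior limb bud mesenchyme, and the 404G>A change is known from human polydactyly. Embryonic macrophages arise from yolk sac and later fetal liver progenitors, settle in most tissues before birth, and take up dying cells through receptors that recognise exposed phosphatidylserine. They break the engulfed material down in lysosomes and recycle its lipid and iron. The limb bud mesenchyme is the main cell type of the tissue and is marked by transcription factors such as Prrx1.

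The 2 matrices held 20508 and 8885 barcodes in dual-enSERT-1 and dual-enSERT-2, with 298653282 and 184301053 UMIs in all. Members had a median of 23569 UMIs in dual-enSERT-1, with a range of 2290 to 82258, and of 26804 UMIs in dual-enSERT-2, with a range of 2624 to 72629. All kept barcodes had medians of 14745.5 and 26149 UMIs in the same order. The libraries shared 49 barcode sequences, none of them shared between members. In dual-enSERT-2, 8 of the 48 members carried Xist and almost no Y-linked RNA, unlike the mesenchyme of that library, and reporter levels with and without them are given at the end.

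The rule genes summed to a median of 77 UMIs per member in dual-enSERT-1 (range 8 to 310) and 49.5 UMIs in dual-enSERT-2 (range 8 to 325). Just inside the rule, 3 members of dual-enSERT-1, and 8 members of dual-enSERT-2, had 8 to 12 of these UMIs. Just outside it, 5 and 4 barcodes had 5 to 7, of which 3 and 2 passed the mesenchyme gate described below. Another 2 barcodes of dual-enSERT-1, and 4 barcodes of dual-enSERT-2, had 8 or more rule UMIs but failed the gene or mitochondrial limit, and they held 0 and 3 reporter UMIs.

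The macrophage label described only some of the members. The C1q genes, which encode the 3 chains of the first complement component and lie side by side on chromosome 4 of mm39 between positions 136606009 and 136626161, had no UMI in 23 members of dual-enSERT-1 and in 25 members of dual-enSERT-2, and 1 or 2 UMIs in a further 2 and 4. At least 3 C1q UMIs were present in 46 members of dual-enSERT-1 and in 19 members of dual-enSERT-2. A second division came from gates for other cell types: mesenchyme (Prrx1, Prrx2, Twist1, Twist2 and Pdgfra summing to 5 UMIs or more), endothelium, muscle and ectoderm (8 UMIs or more over 7 genes each) and red blood cells (haemoglobin at 20% of UMIs or more). At least 1 of these gates was passed by 22 members of dual-enSERT-1, all 22 of them through the mesenchyme gate, and by 13 members of dual-enSERT-2, 10 of them through the mesenchyme gate.

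Members that passed another gate were about double the depth of the others. Their medians were 42382 against 20540 UMIs in dual-enSERT-1 and 47479 against 24681 UMIs in dual-enSERT-2. All gates but that of red blood cells are UMI counts, which deeper barcodes reach more easily, so part of this difference is set by the gates. The doublet caller Scrublet, run on each library, called 13 members of dual-enSERT-1, 12 of which passed another gate, and no member of dual-enSERT-2. Of all kept barcodes it called 9.83% in dual-enSERT-1, compared with 3.16% in dual-enSERT-2. The values below are therefore given for 3 subsets that were set up after the data had been seen. They are C1q members without another gate (35 and 15 barcodes in dual-enSERT-1 and dual-enSERT-2), members without C1q and without another gate (14 and 20), and members that passed another gate (22 and 13).

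The shared immune genes were present in all 3 subsets. Tyrobp, an adaptor of myeloid receptors, was detected in 69 of 71 members of dual-enSERT-1 and 45 of 48 of dual-enSERT-2. Its pooled level, in counts per 1e6 UMIs of the barcodes concerned (CPM), was 1285, 1169 and 469 CPM in the C1q, no C1q and other-gate subsets of dual-enSERT-1, against 0.0853 CPM in mesenchyme. In dual-enSERT-2 it was 1085, 634 and 341 CPM, against 0.195 CPM in mesenchyme. Spi1, the transcription factor of the myeloid lineage, was at 370 and 348 CPM in the C1q and no C1q subsets of dual-enSERT-1 and at 355 and 282 CPM in those of dual-enSERT-2. Ptprc, the pan-leukocyte phosphatase CD45, was at 224 and 218 CPM in dual-enSERT-1 and at 205 and 180 CPM in dual-enSERT-2. Spi1 and Ptprc thus differed little between the C1q and no C1q subsets, while Tyrobp was lowest in the other-gate subset of both libraries.

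Of the rule genes, Fcer1g, the signalling chain of Fc receptors, was at 1056, 676 and 461 CPM in the C1q, no C1q and other-gate subsets of dual-enSERT-1 and at 1190, 451 and 403 CPM in those of dual-enSERT-2. Csf1r, the receptor for the macrophage growth factor, was at 353, 116 and 91.3 CPM in dual-enSERT-1 and at 446, 93.4 and 63.4 CPM in dual-enSERT-2. C1qa was at 864, 0 and 209 CPM and at 819, 0 and 74.6 CPM, and its values in the first and second subsets were set by their definition. Among further leukocyte genes Coro1a, an actin regulator of blood cells, was at 815, 933 and 482 CPM in dual-enSERT-1 and at 730, 699 and 405 CPM in dual-enSERT-2. Runx1, the factor that opens the blood programme, was at 537, 384 and 183 CPM in dual-enSERT-1 and at 783, 664 and 265 CPM in dual-enSERT-2. Coro1a and Runx1 were lowest in the members that passed another gate in both libraries.

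Genes of tissue macrophages sat with C1q. Mrc1, the mannose receptor, was at 988 CPM in C1q members and at 0 in members without C1q in dual-enSERT-1, and at 1602 and 10.6 CPM in dual-enSERT-2. Dab2, an endocytic adaptor, was at 929 and 66.9 CPM in dual-enSERT-1 and at 1271 and 24.7 CPM in dual-enSERT-2. Apoe, the lipid carrier, was at 3099 and 162 CPM in dual-enSERT-1 and at 3007 and 159 CPM in dual-enSERT-2. Hmox1, which breaks down haem, was at 983 and 21.1 CPM in dual-enSERT-1 and at 643 and 8.81 CPM in dual-enSERT-2.

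3 more genes of this kind, named after their values were seen, went the same way. Stab1, a scavenger receptor, was at 311 CPM in C1q members and 3.52 CPM in members without C1q in dual-enSERT-1, and at 512 and 0 CPM in dual-enSERT-2. Timd4, a phosphatidylserine receptor, was at 49.7 and 0 CPM in dual-enSERT-1 and at 63.0 and 0 CPM in dual-enSERT-2. Slc40a1, the iron exporter ferroportin, was at 197 and 0 CPM in dual-enSERT-1 and at 299 and 0 CPM in dual-enSERT-2.

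Members without C1q carried other myeloid RNA. Mpo, the myeloperoxidase of granulocyte and monocyte precursors, was at 29.5 CPM in C1q members and 693 CPM in members without C1q in dual-enSERT-1, and at 2.63 and 1555 CPM in dual-enSERT-2. Prtn3, proteinase 3 of the same granules, was at 38.8 and 282 CPM in dual-enSERT-1 and at 5.25 and 1201 CPM in dual-enSERT-2. Plac8, a monocyte gene, was at 97.9 and 1151 CPM in dual-enSERT-1 and at 7.88 and 851 CPM in dual-enSERT-2. The monocyte list was mixed. Its gene Ccr1, a chemokine receptor, had no single order between the subsets, at 87.0 and 49.3 CPM in dual-enSERT-1 and at 31.5 and 40.5 CPM in dual-enSERT-2. Of 5 tested genes of the list 3 were higher and 2 lower in all members than in all other kept barcodes, by the fold limit given below. Over all genes tested in that comparison 11.7% were higher and 7.56% lower. Cd34, a progenitor surface protein, was at 24.9 and 116 CPM in dual-enSERT-1 and at 5.25 and 197 CPM in dual-enSERT-2. The pooled RNA of members without C1q thus held both the myeloid rule genes Tyrobp and Fcer1g and the granule genes. Over single members without C1q, UMIs of the neutrophil and granule list ran from 0 to 360 in dual-enSERT-1 and from 0 to 463 in dual-enSERT-2. The blood progenitor list was mixed, with 1 of 4 tested genes higher and 1 lower in all members than in all other kept barcodes. Its factor Myb was at 28.2 CPM in members without C1q of dual-enSERT-1, with 6.21 CPM in C1q members, and at 113 CPM in those of dual-enSERT-2, with 0 in C1q members. Tal1, a blood and endothelial factor, was at 29.5 and 24.6 CPM in the C1q and no C1q subsets of dual-enSERT-1 and at 36.8 and 52.8 CPM in those of dual-enSERT-2. Il7r, the interleukin 7 receptor of lymphoid and early myeloid cells, was at 95.04 and 68.7 CPM in members without C1q and had no UMI in C1q members of either library.

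Lyz2, the lysozyme of myeloid cells, had no single order between these subsets, at 875 and 1746 CPM in dual-enSERT-1 and at 859 and 532 CPM in dual-enSERT-2. At least 10 UMIs of the neutrophil and granule list were held by 15 members of dual-enSERT-1, 3 of them with C1q, and by 20 members of dual-enSERT-2, 1 of them with C1q. These counts include members that passed another gate. The calgranulin S100a8 was absent from C1q members and stood at 1225 CPM in members without C1q in dual-enSERT-1 and at 210 CPM in dual-enSERT-2. Cpa3, the mast cell carboxypeptidase, was at 0 in C1q members and at 415 and 40.5 CPM in members without C1q, and 1 member of dual-enSERT-1 held 250 UMIs of the mast and basophil list. The macrophage name is therefore used for the C1q members, and the members without C1q are called by that property alone. The S100a8 and Cpa3 UMIs of dual-enSERT-1 rested on 1 member each, with 348 and 117 UMIs, and 1 member held 267 Lyz2 UMIs.

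**Figure D1:**
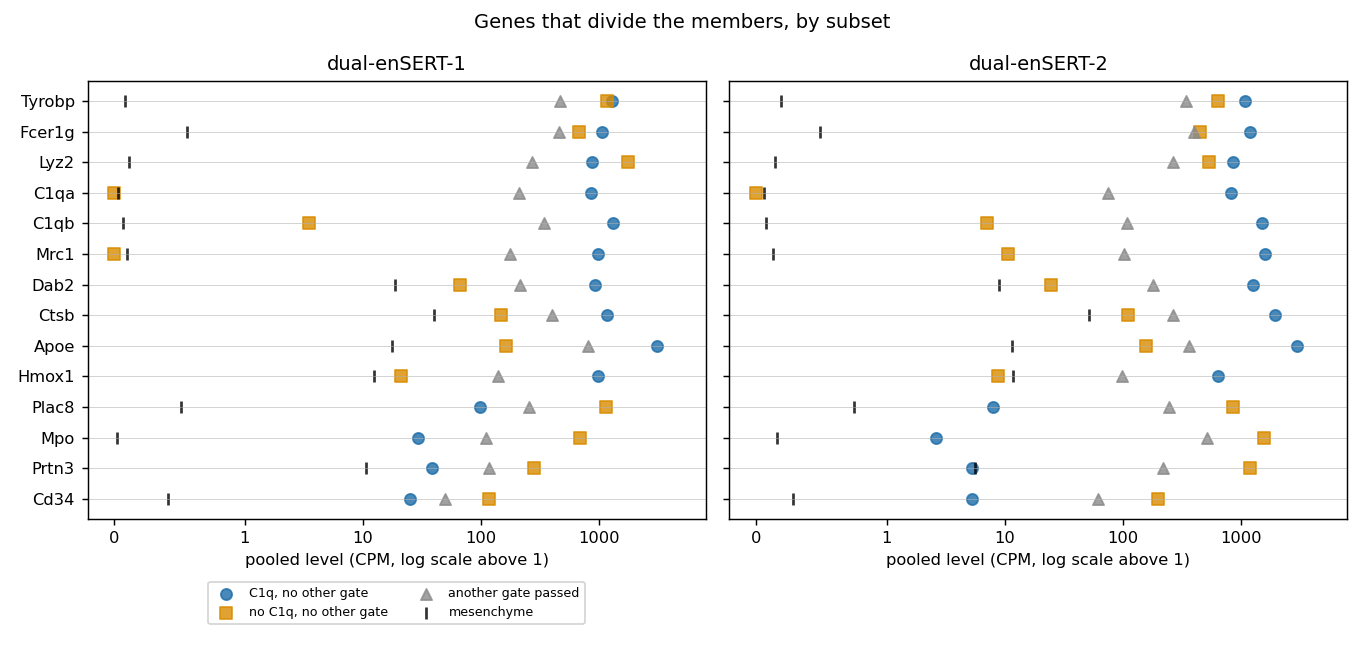
Pooled level in CPM (axis logarithmic above 1) of 14 genes in the 3 subsets of members and in mesenchyme, for dual-enSERT-1 (left) and dual-enSERT-2 (right). Tyrobp and Fcer1g are high in all 3 subsets, C1qa to Hmox1 are highest in C1q members (circles), and Plac8 to Cd34 are highest in members without C1q (squares).

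In members that passed another gate, Pf4 came largely from single barcodes. Pf4 (platelet factor 4, made by megakaryocytes and by embryonic macrophages) was at 443, 0 and 1354 CPM in the C1q, no C1q and other-gate subsets of dual-enSERT-1 and at 425, 3.52 and 3629 CPM in those of dual-enSERT-2. A single member held 726 of its UMIs in dual-enSERT-1, and a single member held 1080 of them in dual-enSERT-2. At least 100 UMIs of the megakaryocyte list were present in 2 members of each library, while the next members had 21 and 31.

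Against all other kept barcodes, 7331 genes reached 20 CPM on either side, and 1409 of them (19.2%) differed by at least 1 on the log2 scale (pseudocount 1 CPM) with the same sign in both libraries. Of these, 855 (11.7%) were higher in members and 554 (7.56%) were lower. The rule used this contrast, so nothing is read from these counts about the name of the cells. Outside the rule genes, those with the largest smaller log2 fold of both libraries were Lyz2 (9.25 in dual-enSERT-1, with 8.79 in dual-enSERT-2), Mrc1 (8.58 and 8.65), Rac2, the GTPase of blood cells (7.90 and 7.71), Pf4 (7.71 and 8.82) and Spi1 (7.93 and 7.66). Plac8, F13a1, Mpo, Ms4a6c, Cd52, Ptprc, Cd86, Fyb, Srgn and Plek followed, all at 6.85 or more in both libraries.

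Of 28 macrophage genes outside the rule 24 reached the level for the comparison, and these 24 were higher, with median log2 folds of 6.38 and 6.34. Adgre1, the surface protein F4/80, was at 174, 24.6 and 39.6 CPM in the C1q, no C1q and other-gate subsets of dual-enSERT-1 and at 255, 37.0 and 29.9 CPM in those of dual-enSERT-2. 7 of 8 tested resident macrophage genes were higher, among them F13a1, the transglutaminase factor XIII, at 398 and 176 CPM in the C1q and no C1q subsets of dual-enSERT-1 and at 1232 and 167 CPM in those of dual-enSERT-2. The microglia-type list was mixed, with 2 of 6 tested genes higher (Trem2 and P2ry12) and 2 lower (Sall1 and Tmem119, both of which mesenchyme also carried). The median over all genes tested was -0.09 and 0.21 in dual-enSERT-1 and dual-enSERT-2.

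The uptake machinery was higher in part. Of 28 tested genes of apoptotic cell uptake 18 were higher and 1 was lower, with median log2 folds of 3.79 and 4.29 in dual-enSERT-1 and dual-enSERT-2. Cx3cr1, the fractalkine receptor and a rule gene, was at 719 and 222 CPM in the C1q and no C1q subsets of dual-enSERT-1 and at 339 and 123 CPM in those of dual-enSERT-2. Elmo1, a part of the engulfment signal to Rac, was at 452 and 348 CPM in dual-enSERT-1 and at 378 and 352 CPM in dual-enSERT-2. The lower gene was Gulp1, an engulfment adaptor, at 75.8 and 26.3 CPM in members of dual-enSERT-1 and dual-enSERT-2, against 242 and 182 CPM in mesenchyme.

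Mertk, a receptor for bridged phosphatidylserine that is named here after its values were seen, did not pass the fold limit, at log2 folds of 0.19 and 0.76. Mesenchyme carried it too, at 105 and 73.1 CPM, against 177 and 200 CPM in C1q members and 7.04 and 14.1 CPM in members without C1q. Rac1, the general Rac GTPase, was at log2 folds of 0.83 and 0.81.

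Lysosomal and nucleic acid breakdown genes were higher for 25 of 30 tested, with medians of 2.54 and 2.58. Ctsb, cathepsin B, was at 1174 and 148 CPM in the C1q and no C1q subsets of dual-enSERT-1 and at 1928 and 111 CPM in those of dual-enSERT-2. Ctsc, the cathepsin that activates granule proteases, was instead alike in both subsets, at 567 and 630 CPM in dual-enSERT-1 and at 565 and 534 CPM in dual-enSERT-2. Of 12 tested iron and haem genes 7 were higher, and of 11 lipid efflux genes 8 were higher. The ferritin chains Ftl1 and Fth1, which store iron, were at 7818 and 7075 CPM in C1q members of dual-enSERT-1, with 2932 and 2816 CPM in members without C1q. In dual-enSERT-2 they were at 9261 and 6700 CPM in C1q members, with 2459 and 2654 CPM in members without C1q. Against other kept barcodes, Fth1 had log2 folds of 1.78 and -0.05 and did not pass the limit in dual-enSERT-2. Abca1, a cholesterol exporter, was at 177 and 3.52 CPM in the C1q and no C1q subsets of dual-enSERT-1 and at 263 and 8.81 CPM in those of dual-enSERT-2.

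Complement genes were higher for 7 of 8 tested, 3 of them rule genes, and chemokines and cytokines for 8 of 10. C3ar1, the receptor of the C3a fragment, was at 241 and 10.6 CPM in the C1q and no C1q subsets of dual-enSERT-1 and at 221 and 7.05 CPM in those of dual-enSERT-2. The chemokine Ccl4 was at 429, 176 and 117 CPM in the C1q, no C1q and other-gate subsets of dual-enSERT-1 and at 215, 109 and 41.1 CPM in those of dual-enSERT-2. Of 7 growth factor genes 3 were higher, and Tgfb1 was at 200, 158 and 129 CPM in the C1q, no C1q and other-gate subsets of dual-enSERT-1 and at 231, 194 and 230 CPM in those of dual-enSERT-2. Of 16 tested immediate early genes 14 were higher, with medians of 3.05 and 3.51, and Fos, a subunit of AP-1, was at 413 and 294 CPM in members of dual-enSERT-1 and dual-enSERT-2, against 9.65 and 2.75 CPM in mesenchyme. Of 25 cell cycle genes none passed the fold limit in either direction, and Mki67, a marker of cycling cells, was at 390 and 208 CPM in the C1q and no C1q subsets of dual-enSERT-1 and at 423 and 231 CPM in those of dual-enSERT-2.

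Reporter RNA, which the rule did not use, was present in members of both libraries. In dual-enSERT-1 members carried 237 mCherry UMIs, a level of 124 CPM (109 to 141), against 54.3 CPM in mesenchyme. In dual-enSERT-2 they carried 115 mCherry UMIs, 77.5 CPM (64.0 to 93.0), against 21.5 CPM in mesenchyme. The mCherry level of members was thus 2.28 times (2.0 to 2.59) that of mesenchyme in dual-enSERT-1 and 3.60 times (2.96 to 4.34) in dual-enSERT-2, above it in both.

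For eGFP the direction differed between libraries. Members of dual-enSERT-1 carried 118 eGFP UMIs, 61.7 CPM (51.0 to 73.8), against 149 CPM in mesenchyme. Members of dual-enSERT-2 carried 116 eGFP UMIs, 78.1 CPM (64.6 to 93.7), against 26.7 CPM in mesenchyme. The member level was 0.412 times (0.341 to 0.494) that of mesenchyme in dual-enSERT-1 and 2.92 times (2.41 to 3.52) in dual-enSERT-2. The mesenchyme levels, not only those of the members, differed between the libraries.

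C1q members without another gate were at 208 CPM of mCherry (174 to 247) in dual-enSERT-1 and 86.7 CPM (59.7 to 122) in dual-enSERT-2, 3.83 and 4.03 times mesenchyme. Members without C1q were at 52.8 CPM (29.6 to 87.1) and 86.3 CPM (63.9 to 114), and those that passed another gate at 89.3 CPM (71.6 to 110) and 61.6 CPM (42.4 to 86.5). The order of the subsets was not the same in both libraries: in dual-enSERT-1 the interval of the C1q subset lay above those of the other subsets, and in dual-enSERT-2 all 3 intervals overlapped. For eGFP the C1q, no C1q and other-gate subsets were at 52.8 (36.6 to 73.8), 31.7 (14.5 to 60.1) and 76.1 CPM (59.8 to 95.4) in dual-enSERT-1 and at 99.8 (70.6 to 137), 61.6 (42.9 to 85.7) and 80.2 CPM (58.1 to 108) in dual-enSERT-2.

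The other cell classes of the same libraries were lower. Endothelial, muscle, ectoderm and red blood cell barcodes had 8.25, 10.6, 8.21 and 25.9 CPM of mCherry in dual-enSERT-1, and levels of 20.9, 6.92, 2.20 and 5.35 CPM in dual-enSERT-2. Most of the red blood cell value of dual-enSERT-1 came from 1 barcode with 86 UMIs, and the level without it was 8.52 CPM. For eGFP the same classes had 26.5, 34.1, 30.9 and 38.1 CPM in dual-enSERT-1, and levels of 16.3, 9.0, 1.76 and 5.68 CPM in dual-enSERT-2. Member mCherry stood above each of these classes in both libraries. Member eGFP also did, but in dual-enSERT-1 the no C1q subset, at 31.7 CPM, lay among these classes.

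No Shh UMI was found beside the reporters. No member of either library held a UMI of Shh, the natural target of the ZRS. With a floor of 3 counts this allows up to 1.57 CPM in dual-enSERT-1, and up to 2.02 CPM in dual-enSERT-2, against 7.56 and 7.92 CPM in mesenchyme. Mesenchyme barcodes with a Shh UMI carried 476 CPM of mCherry and 391.9 CPM of eGFP in dual-enSERT-1, and levels of 138 and 166 CPM in dual-enSERT-2, above the pooled member level of either reporter. The ratio of eGFP to mCherry UMIs was 0.254 (0.169 to 0.372) in C1q members of dual-enSERT-1, against 2.75 in all mesenchyme and 0.823 in mesenchyme with a Shh UMI. In dual-enSERT-2 it was 1.15 (0.703 to 1.90) in C1q members, 1.24 in all mesenchyme and 1.20 in mesenchyme with a Shh UMI. The C1q ratio of dual-enSERT-1 therefore lay below that of both mesenchyme groups, and that of dual-enSERT-2 had an interval that held both.

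**Figure D2:**
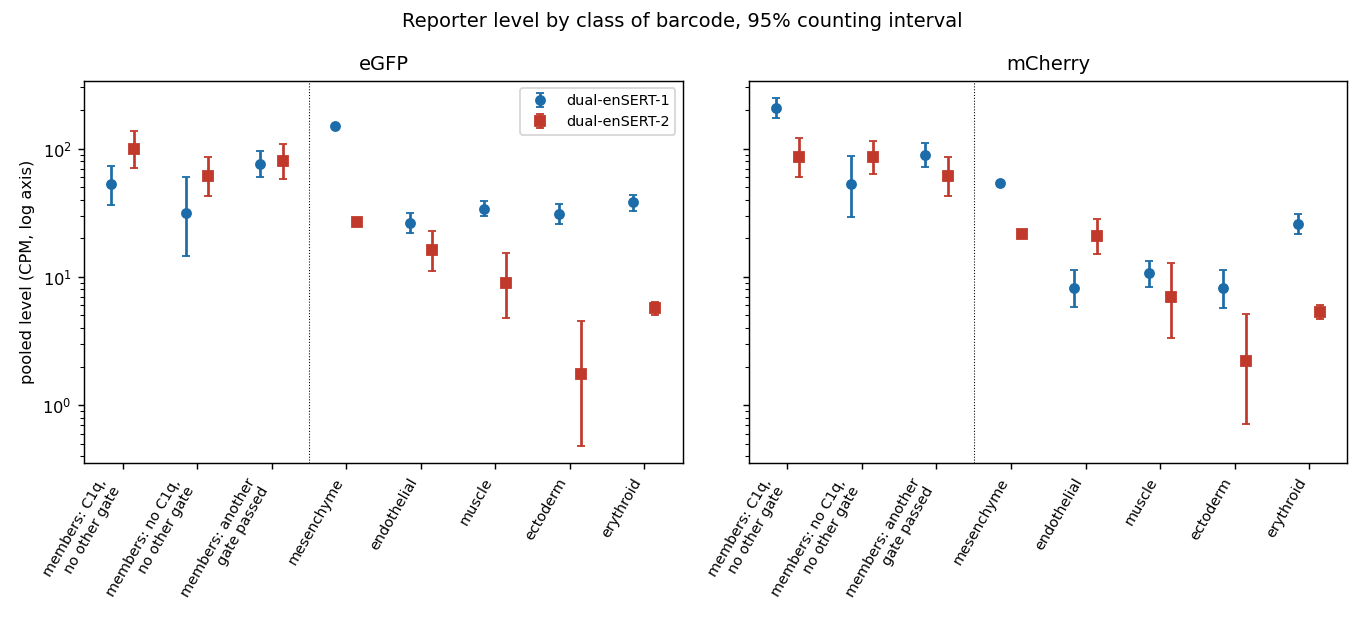
Pooled level in CPM (logarithmic axis) of eGFP (left) and mCherry (right) in the 3 subsets of members, left of the dotted line, and in the other cell classes, with 95% counting intervals as bars, for dual-enSERT-1 (circles) and dual-enSERT-2 (squares). For mCherry the C1q members are at 208 and 86.7 CPM, against 54.3 and 21.5 CPM in mesenchyme.

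The reporter UMIs were spread unevenly over members. Among the 35 C1q members of dual-enSERT-1 the 5 highest had 27, 21, 19, 15 and 13 mCherry UMIs, the median was 1, and 17 had none. Among the 15 C1q members of dual-enSERT-2 the highest had 10, 8 and 5, the median was 1, and 7 had none. For eGFP the highest C1q members had 6 and 5 UMIs in dual-enSERT-1, with 16 at none, and 15, 10 and 8 UMIs in dual-enSERT-2, with 8 at none. The 5 members with the most mCherry held 44.3% of all member mCherry UMIs in dual-enSERT-1, compared with 61.7% in dual-enSERT-2.

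Members without C1q had maxima of 10 mCherry and 3 eGFP UMIs in dual-enSERT-1, with 9 of 14 at no mCherry. In dual-enSERT-2 1 member held 32 mCherry and 21 eGFP UMIs, and 15 of 20 had no mCherry. Without the member highest in each reporter, the no C1q level of dual-enSERT-2 was 32.6 CPM of mCherry, against 86.3 CPM with it, and 26.8 CPM of eGFP, against 61.6 CPM. In dual-enSERT-1 the no C1q level of mCherry was 19.5 CPM without its highest member, against 52.8 CPM with it, and the other-gate level of eGFP was 45.0 CPM, against 76.1 CPM. In the C1q subset the same step gave 172 CPM of mCherry in dual-enSERT-1, against 208 CPM, and 68.4 CPM in dual-enSERT-2, against 86.7 CPM.

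At least 5 mCherry UMIs were present in 17 of 71 members (23.9%) of dual-enSERT-1, against 3.98% of mesenchyme barcodes, and in 9 of 48 members (18.8%) of dual-enSERT-2, against 2.40%. After thinning each barcode to 5000 UMIs, which left out 5 and 2 shallower members, mCherry was detected in 25.8% of members (15.8% to 38%) in dual-enSERT-1, against 10.2% of mesenchyme and 2.07% of ectoderm barcodes. In dual-enSERT-2 it was detected in 26.1% (14.3% to 41.1%), against 6.32% of mesenchyme and 0.98% of ectoderm barcodes. Unthinned, the member shares were 52.1% and 43.8%, and those of ectoderm, at median depths of 12123.5 and 17828.5 UMIs, were 10.2% and 4.72%. For eGFP the thinned share was 19.7% of members (10.9% to 31.3%) in dual-enSERT-1, against 26.7% of mesenchyme and 12.4% of ectoderm, and 23.9% (12.6% to 38.8%) in dual-enSERT-2, against 7.85% and 0.98%. By subset, the thinned mCherry share of the C1q, no C1q and other-gate members was 33.3%, 7.14% and 27.3% in dual-enSERT-1 and was 33.3%, 5.56% and 46.2% in dual-enSERT-2. At matched depth the share of all members was therefore above that of mesenchyme and ectoderm for mCherry in both libraries, but that of members without C1q was below mesenchyme. That share rests on 1 barcode in each library, and its intervals of 0.181% to 33.9% and 0.141% to 27.3% hold the mesenchyme values.

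**Figure D3:**
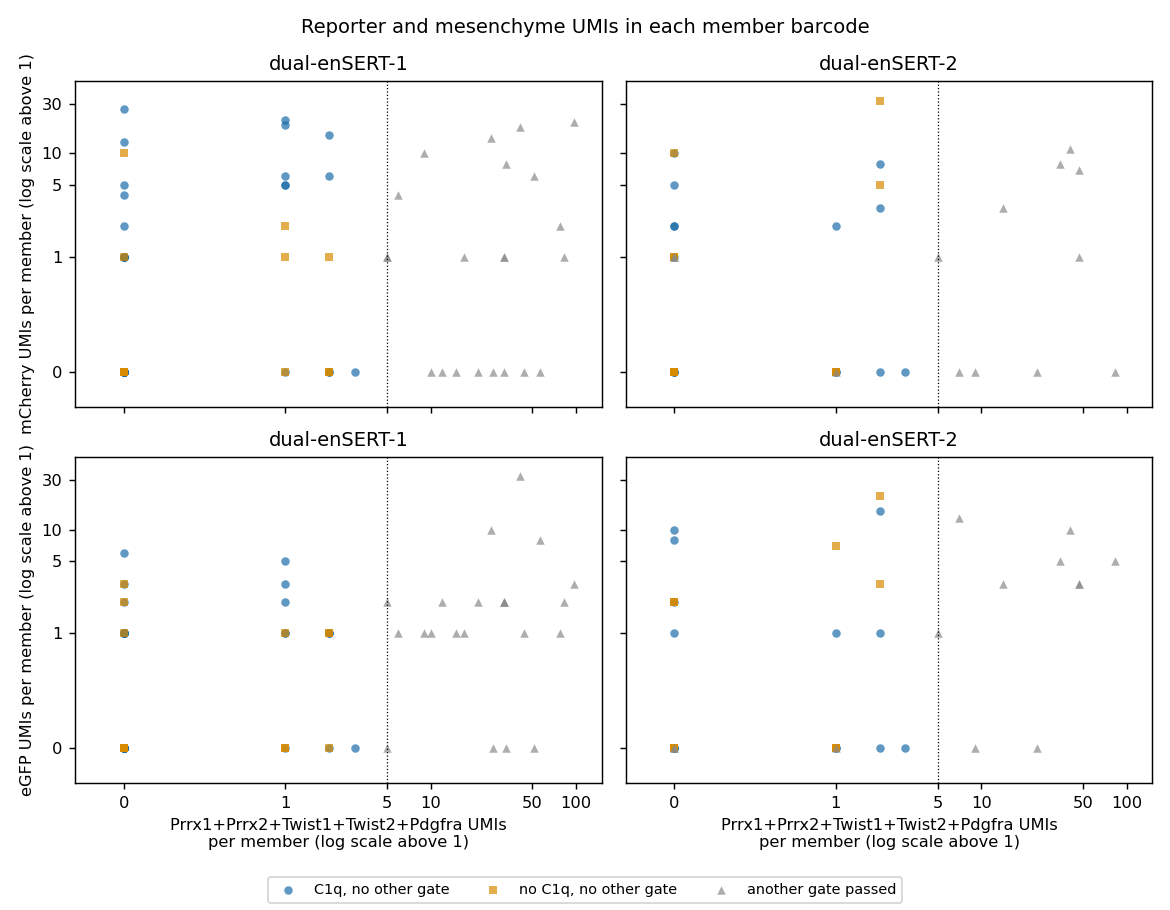
UMIs of mCherry (top) and eGFP (bottom) against the summed UMIs of Prrx1, Prrx2, Twist1, Twist2 and Pdgfra in each member (all axes logarithmic above 1), with dual-enSERT-1 left and dual-enSERT-2 right and the dotted line at the mesenchyme gate of 5 UMIs. C1q members (circles) hold up to 27 mCherry UMIs with at most 3 UMIs of the mesenchyme genes.

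Mesenchyme RNA was concentrated in other barcodes than the C1q subset. Over all members, the 5 mesenchyme gate genes were at 0.245 times (0.228 to 0.263) their mesenchyme level in dual-enSERT-1 and at 0.154 times (0.138 to 0.171) in dual-enSERT-2. Members that passed another gate were at 0.459 and 0.400 times. C1q members without another gate were at 0.0164 times (17 UMIs over 35 barcodes) and 0.0216 times (12 UMIs over 15 barcodes), low by selection, since 5 such UMIs in 1 barcode would have placed it in the other subset. Endothelial, muscle, ectoderm and red blood cell barcodes, chosen under the same limit, were at 0.0139, 0.0433, 0.0299 and 0.0183 times in dual-enSERT-1 and at 0.0143, 0.0450, 0.0286 and 0.0126 times in dual-enSERT-2.

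Prrx1, a homeobox factor of limb mesenchyme, was detected in 29 of 71 members of dual-enSERT-1 and 18 of 48 of dual-enSERT-2. Its level was 9.32, 10.6 and 328 CPM in the C1q, no C1q and other-gate subsets of dual-enSERT-1, against 790 CPM in mesenchyme, and 21.0, 5.28 and 282 CPM in those of dual-enSERT-2, against 746 CPM. Of the 332 Prrx1 UMIs in members of dual-enSERT-1 323 lay in members that passed another gate, and in dual-enSERT-2 this was 151 of 162. Prrx1 is a gate gene, so its order over the subsets and this split follow largely from their definition. The receptor Pdgfra, another gate gene, had no UMI in the C1q members of either library.

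To look beyond the gate genes, 27 genes were taken that reached 20 CPM in mesenchyme and stayed at or below 10% of that level in endothelial, muscle, ectoderm and red blood cell barcodes of both libraries. The list was set up after the data had been seen, without the macrophage barcodes, and includes the gate genes Prrx1, Prrx2 and Twist1. Leaving out barcodes that passed the mesenchyme gate also lowers these genes in the C1q and no C1q subsets. Summed over the 27 genes, C1q members without another gate were at 0.0200 times mesenchyme (0.0156 to 0.0253, 70 UMIs) in dual-enSERT-1 and at 0.0305 times (0.0231 to 0.0395, 57 UMIs) in dual-enSERT-2. Members without C1q were at 0.0240 and 0.0208 times. For endothelial, muscle, ectoderm and red blood cell barcodes, whose low values the choice of genes sets, the ratios were 0.0242, 0.0330, 0.0218 and 0.0218 in dual-enSERT-1 and were 0.0211, 0.0308, 0.0189 and 0.0138 in dual-enSERT-2. The C1q level thus lay just below the range of these classes in dual-enSERT-1 and inside it in dual-enSERT-2, and whether it came from free RNA in the droplet or from engulfed RNA was not tested. Members that passed another gate were at 0.448 times (0.430 to 0.466) and 0.431 times (0.406 to 0.457).

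The genes found in C1q members had few UMIs each. Cped1 had 8 UMIs in C1q members of dual-enSERT-1 and 12 in those of dual-enSERT-2, Tbx15, a T-box factor of the limb skeleton, had 4 and 5, and Pitx1, the hindlimb identity factor, had 4 and 3. Lix1 had 4 and 6, Shox2, a homeobox factor of the proximal limb, had 3 and 1, and Hand2, a posterior factor upstream of Shh, had 2 and 1. In all 19 of the 27 genes had a UMI in C1q members of dual-enSERT-1 and 16 in those of dual-enSERT-2, while Lhx2, Mab21l1, Tmem132cos, Hand2os1, Zic5, Zic2 and Tbx2 had none in either. The highest ratio was that of Zbtb16, a zinc finger factor also used by blood cells, at 0.35 and 0.289 times mesenchyme with 7 UMIs in each library.

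Per gene, the median ratio to mesenchyme was 0.0146 in C1q members of dual-enSERT-1 and 0.0120 in those of dual-enSERT-2. In members that passed another gate it was 0.414 and 0.438, and 27 and 25 of the 27 genes had a UMI. With all barcodes counted, the mCherry ratio was above that of each of the 27 genes in all 3 subsets of both libraries. In members without C1q of dual-enSERT-1 it was 0.972, and 1 barcode held 10 of the 15 mCherry UMIs. The lower level without that barcode is given above. The eGFP ratio was above that of all 27 genes in the 3 subsets of dual-enSERT-2 and in the C1q subset of dual-enSERT-1, while in dual-enSERT-1 1 gene was at or above it in members without C1q and 6 genes in members that passed another gate.

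**Figure D4:**
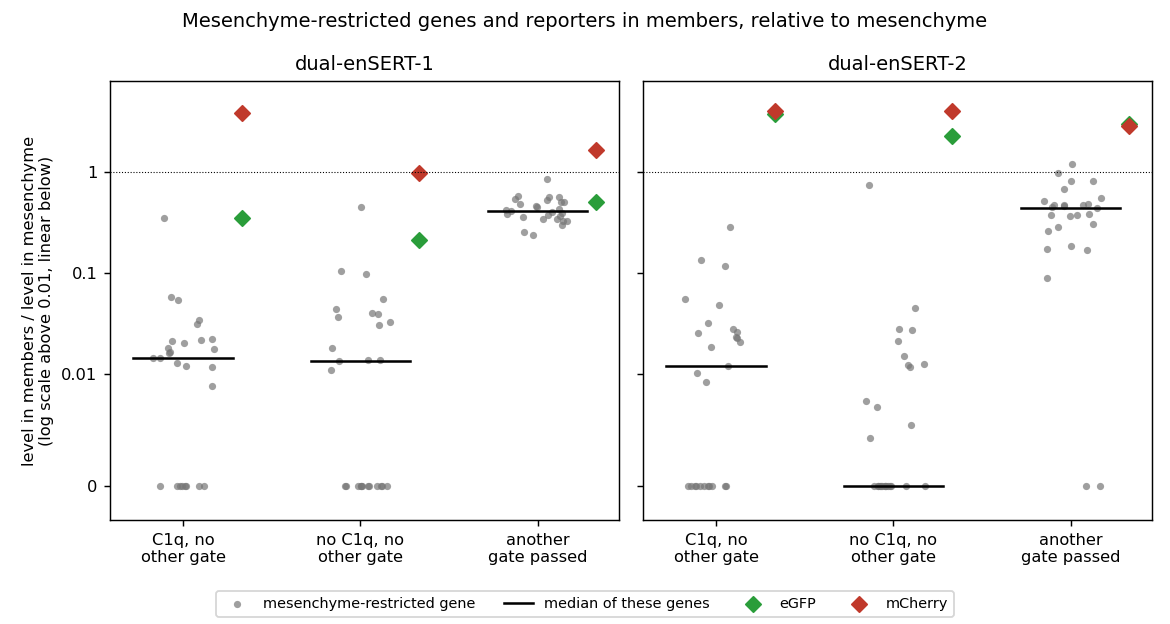
Level in each subset of members over the level in mesenchyme (axis logarithmic above 0.01) for the 27 mesenchyme-restricted genes (dots, with their median as a bar), eGFP and mCherry (diamonds), with dual-enSERT-1 left and dual-enSERT-2 right. In C1q members the gene medians are 0.0146 and 0.0120, while mCherry is at 3.83 and 4.03.

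Counted per mCherry UMI, C1q members held 0.522 UMIs of the 27 genes (0.386 to 0.703) in dual-enSERT-1 and 1.73 (1.11 to 2.74) in dual-enSERT-2. Mesenchyme held 99.96 and 228 of them per mCherry UMI, and mesenchyme with a Shh UMI held 11.02 and 32.5. In the members that passed another gate the count was 27.2 and 34.3, and over all members it was 10.6 (9.24 to 12.1) and 10.9 (8.96 to 13.3). The C1q count is lowered by the exclusion of barcodes that passed the mesenchyme gate. The count over all members pools subsets with unlike counts. It was close to that of mesenchyme with a Shh UMI in dual-enSERT-1 but below it in dual-enSERT-2, at 10.9 against 32.5.

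A longer list of 70 mesenchyme genes, not restricted to that cell type, gave ratios of 0.337 and 0.278 over all members and of 0.135 and 0.180 in C1q members without another gate. Of the 48 genes tested 41 were lower in members and 1, Zeb2, was higher. Zeb2, a repressor also used by myeloid cells, was at 1047 and 1379 CPM in C1q members, against 18.8 and 19.1 CPM in mesenchyme of dual-enSERT-1 and dual-enSERT-2. Members without C1q and members that passed another gate carried it as well, at 535 and 327 CPM in dual-enSERT-1 and at 717 and 450 CPM in dual-enSERT-2.

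Some other genes of the list were also present in C1q members. Igfbp4, a binding protein of insulin-like growth factors, was at 236 and 310 CPM in C1q members, against 279 and 277 CPM in mesenchyme, and Tcf4, an E protein, at 269 and 302 CPM, against 1114 and 728 CPM. Zfhx3, Cnn2 and Meis1 were at 193, 87.0 and 48.2 CPM in C1q members of dual-enSERT-1 and at 118, 60.4 and 36.8 CPM in those of dual-enSERT-2, with mesenchyme at 355, 105 and 62.5 CPM and at 197, 111 and 53.8 CPM. These 5 had the highest member to mesenchyme ratios among genes at 50 CPM or more in mesenchyme.

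By contrast, Gpc3, a glypican of growing tissue, was at 17.1 and 31.5 CPM in C1q members and at 564 and 577 CPM in members that passed another gate, against 1401 and 1515 CPM in mesenchyme. Mdk, the growth factor midkine, was at 52.8 and 21.0 CPM in C1q members and at 910 and 679 CPM in members that passed another gate, against 1786 and 1628 CPM. Gpc6 and Peg3 had the same order, at 3.11 and 12.4 CPM in C1q members of dual-enSERT-1 and at 39.4 and 34.1 CPM in those of dual-enSERT-2, against 757 CPM or more in mesenchyme. The lowest ratios were those of Mfap4, Tbx4, Lhx2, Shox2 and Zfhx4, at 0.191 to 0.216 over all members of dual-enSERT-1 and 0.0706 to 0.165 over those of dual-enSERT-2. Hmga2, a chromatin protein of embryonic cells, was at 32.6 and 39.4 CPM in C1q members but at 180 and 525 CPM in members without C1q.

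Limb position genes were lower for 15 of 16 tested. Hoxa10 was at 3.11, 3.52 and 136 CPM in the C1q, no C1q and other-gate subsets of dual-enSERT-1, against 290 CPM in mesenchyme, and at 2.63, 14.1 and 142 CPM in those of dual-enSERT-2, against 297 CPM. Ptch1, the Shh receptor, was at 18.6 and 18.4 CPM in C1q members, against 143 and 143 CPM in mesenchyme. Among the 15 genes lower by the most in both libraries were Hoxd9 (log2 folds of -2.81 and -2.88), Tbx18 (-2.68 and -3.63), Lama2 (-2.52 and -2.42), Bmp7 (-2.28 and -2.86), Cxcl12 (-2.21 and -3.46) and Hand2 (-2.19 and -2.61).

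Markers of further cell types were mostly low outside the members that passed another gate, apart from some endothelial genes in members without C1q. Egfl7, an endothelial secreted protein, was at 31.1, 130 and 75.1 CPM in the C1q, no C1q and other-gate subsets of dual-enSERT-1 and at 23.6, 155 and 18.7 CPM in those of dual-enSERT-2, against 13.6 and 14.8 CPM in mesenchyme. Pecam1, the adhesion molecule CD31 that blood cells also carry, was at 24.9 and 14.1 CPM in the C1q and no C1q subsets of dual-enSERT-1 and at 5.25 and 79.3 CPM in those of dual-enSERT-2. Flt1, a VEGF receptor, was at 3.11 and 28.2 CPM in dual-enSERT-1 and at 0 and 66.9 CPM in dual-enSERT-2. Of the endothelial genes outside the gate 2 of 3 tested were higher in members. None of the 7 endothelial gate genes reached 20 CPM on either side in both libraries, and Kdr, a VEGF receptor, was at 4.66 CPM in C1q members of dual-enSERT-1 and at 0 in those of dual-enSERT-2. The ectoderm gate genes Epcam and Krt18 had no UMI in C1q members of either library, and the muscle gate gene Pax3 had none either. Haemoglobin RNA was at 763 CPM in C1q members of dual-enSERT-1, against 625 CPM in mesenchyme, and at 5636 CPM in those of dual-enSERT-2, against 5813 CPM. Without the single highest barcode of the subset these levels were 327 and 2720 CPM. Haemoglobin in C1q members was thus higher in dual-enSERT-2 than in dual-enSERT-1 with or without these barcodes, as in mesenchyme. Its level was near that of mesenchyme only with these barcodes and below it without them in both libraries. The source of this RNA was not tested.

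Among C1q members, the mesenchyme-restricted genes had no single order over the number of reporter UMIs. In dual-enSERT-1 the 27 genes were at 111 CPM (77.6 to 155) in the 13 barcodes with 3 or more reporter UMIs, at 104 CPM (64.3 to 159) in the 13 with 1 or 2, and at 110 CPM (60.01 to 184) in the 9 with none. In dual-enSERT-2 they were at 187 CPM (123 to 272) in 5 barcodes, 79.1 CPM (34.2 to 156) in 4 and 163 CPM (102 to 247) in 6. The intervals overlapped in each library. These levels rest on 35, 21 and 14 UMIs in dual-enSERT-1 and on 27, 8 and 22 UMIs in dual-enSERT-2. Barcodes that passed the mesenchyme gate were left out of this subset beforehand, so the split cannot show whether reporter and larger amounts of mesenchyme RNA go together. The 70-gene mesenchyme list described above was lower where reporter UMIs were more. It was at 1936 CPM (1785 to 2096), 2270 CPM and 2642 CPM (2368 to 2940) in dual-enSERT-1. In dual-enSERT-2 it was at 2435, 2620 and 2784 CPM, and the intervals overlapped. A large part of that list in C1q members was Zeb2, at 1047 and 1379 CPM, against 18.8 and 19.1 CPM in mesenchyme. Its total is therefore no measure of mesenchyme RNA alone. Haemoglobin was at 1207, 351 and 322 CPM in the same groups of dual-enSERT-1 and at 10306, 3075 and 2555 CPM in those of dual-enSERT-2, and 1 barcode held 289 of the 491 and 1131 of the 2146 haemoglobin UMIs.

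Macrophage gene lists differed over the same barcodes, in part with less of them where reporter UMIs were most. The uptake list was at 4906, 4209 and 4869 CPM from most to no reporter in dual-enSERT-1 and at 4330, 4776 and 4583 CPM in dual-enSERT-2, and the lysosome list at 8928, 7345 and 9652 CPM and at 7802, 9790 and 10574 CPM. The rule genes were at 6508, 5995 and 6272 CPM in dual-enSERT-1 and at 4641, 5686 and 8308 CPM in dual-enSERT-2. Macrophage genes outside the rule were at 7641, 8384 and 10914 CPM in dual-enSERT-1 and at 8217, 9681 and 8641 CPM in dual-enSERT-2. The order was thus the same in both libraries for none of these 4 lists. In dual-enSERT-2, 3 of the 6 C1q members without a reporter UMI were among the members with Xist described below. The split by reporter UMIs and the split by Xist therefore overlap there. Across the 35 C1q members of dual-enSERT-1 the levels of eGFP and mCherry in a barcode had a Spearman rho of 0.16, and across the 15 of dual-enSERT-2 of 0.75. These points share a library and its depth, the counts are sparse, and the values are descriptions.

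Between the libraries, 4166 genes reached 50 CPM or more in members of either, of which 52 (1.25%) were higher and 57 (1.37%) lower in dual-enSERT-1 by at least 1 on the log2 scale. Several of the highest followed the makeup of the members. Meis2, a proximal limb factor, was at 75.8 CPM in members of dual-enSERT-1 and 8.08 CPM in those of dual-enSERT-2, but at 1.55 and 0 CPM in C1q members. Ppbp, a platelet chemokine, and Ptprm, an adhesion phosphatase, were at log2 folds of 2.85 and 2.85, with 64.6% and 82.9% of their UMIs in 1 member, and at -1.64 and -0.40 without members that passed another gate. Zfhx4, Fbxl7, Nfia, Sparc and Dach1 were at log2 folds of 2.62, 2.33, 2.31, 2.23 and 2.18, while the same libraries differed in mesenchyme by 1.37, 0.78, 1.81, 1.48 and 1.26. Without members that passed another gate these 5 were at 0.024, -0.46, 0.37, 0.92 and -0.99, so none passed the fold limit.

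Among the genes lower in dual-enSERT-1, Ms4a3, a gene of granulocyte and monocyte precursors, was at 0.523 CPM in members of dual-enSERT-1 and 119 CPM in those of dual-enSERT-2, with no UMI in C1q members. H2-Aa, an MHC class II chain, and S100a9, the partner of S100a8, had log2 folds of -5.21 and -3.43, with 91.5% and 92.9% of their UMIs in 1 member. In C1q members the H2-Aa fold was 1.35, from 1.55 CPM in dual-enSERT-1, which is 1 UMI, and 0 in dual-enSERT-2. The chemokine Cxcl2 was at 23.3 CPM in C1q members of dual-enSERT-1 and 189 CPM in those of dual-enSERT-2. Hbb-bh1, an embryonic globin, and Lars2, a mitochondrial tRNA synthetase, had log2 folds of -2.56 and -2.38 in members and of -4.00 and -2.15 in mesenchyme. Ikzf2, a lymphoid factor, was at 21.9 and 127 CPM in all members but at 10.9 and 2.63 CPM in C1q members.

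Xist, the RNA made from the inactive X of female cells, was at 0 CPM in members of dual-enSERT-1 and 63.3 CPM in those of dual-enSERT-2. All but 1 of its 94 UMIs in members of dual-enSERT-2 lay in 8 barcodes with 3 or more each. These 8 members held 1 UMI of the Y-linked genes Ddx3y, Uty, Kdm5d and Eif2s3y in all, and 7 of them had none. The other 40 members held 1 Xist UMI and 282 Y-linked UMIs, 219 CPM, and 1 of them had no Y-linked UMI.

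Mesenchyme of both libraries had Y-linked RNA, at 232 CPM in dual-enSERT-1 and 197 CPM in dual-enSERT-2, and little Xist, at 0.0690 and 1.30 CPM. The members of dual-enSERT-1 had 170 CPM of Y-linked RNA and no Xist UMI. The 8 members with Xist were 4 of the 15 C1q members, 3 of the 20 without C1q and 1 of the 13 that passed another gate. They differed in sex-linked RNA from the other members and from the mesenchyme of their own library, for which the design gives 1 embryo. Their source was not tested, and the members of dual-enSERT-2 are given with and without them below.

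The 8 members with Xist held almost no reporter. They had 0 eGFP UMIs, which by the same floor allows up to 15.3 CPM, and 3 mCherry UMIs, 15.3 CPM (3.16 to 44.8), and 6 of the 8 had no reporter UMI. In the other 40 members eGFP was at 90.0 CPM (74.4 to 108) and mCherry at 86.9 CPM (71.6 to 105), and 16 of the 40 had no reporter UMI. Among C1q members without another gate, the 11 barcodes without Xist had eGFP at 130 CPM (92.1 to 179) and mCherry at 106 CPM (72.1 to 151), whereas all 15 had 99.8 and 86.7 CPM. Nearly all reporter RNA of the members of dual-enSERT-2 thus lay in barcodes without Xist.

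**Figure D5:**
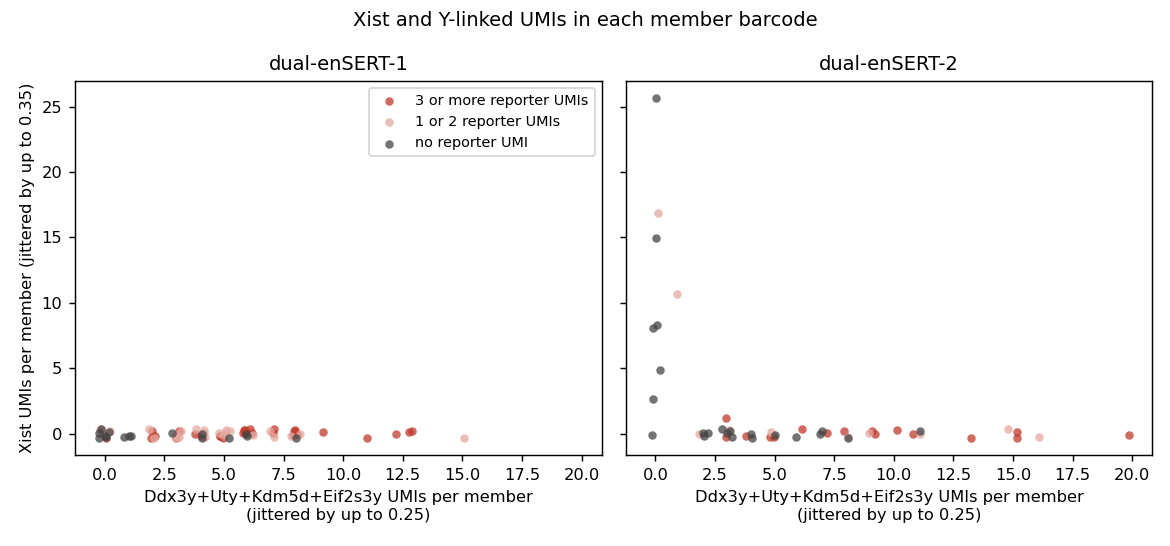
Xist UMIs against the summed UMIs of 4 Y-linked genes in each member, with dual-enSERT-1 left and dual-enSERT-2 right, coloured by the number of reporter UMIs (points jittered). In dual-enSERT-2, 8 members have 3 or more Xist UMIs and together 1 Y-linked UMI, and none of them has 3 or more reporter UMIs.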

How the data were processed

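Both deposited matrices give unnormalized UMI counts, in whole numbers, for each gene in each barcode. They come from 3′ droplet libraries with a target of 10000 cells and about 50000 reads per cell per the labels' protocols. The matrices name Cell Ranger 7.0.1 per the file headers, whereas the submitters' processing notes list Cell Ranger 3.1.0, Seurat 4 and mm39. Use of intronic reads and of strand is not given in the sources used here.

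From these counts, 2593 and 1502 barcodes under 1000 genes and 125 and 700 over 10% mitochondrial UMIs were left out in dual-enSERT-1 and dual-enSERT-2. Pooled levels are UMIs of a gene over all UMIs of the barcodes, times 1e6. Reference classes are kept barcodes that are no members and pass 1 gate alone. The rule has no doublet step, so doublets were kept, and Scrublet (in Scanpy 1.11.5, expected rate 8%) served as an alternative. Cells are not replicates and each group has 1 library, so no test was run and no p-value is given. A count of 0 is given with a floor of 3 counts. Fold limits of 1 on the log2 scale served as calls, with 20 CPM as minimum against other barcodes and 50 CPM between libraries. The fold step was checked on simulated counts.

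The members and gene lists were chosen with earlier results of these data known. Genes were named by a rule: rule genes, reporters, Shh and Prrx1, the 15 genes per direction ranked by the smaller log2 fold of both libraries, the 4 highest genes of each list, the mesenchyme genes with the most UMIs and the highest and lowest ratios, and 8 per direction between libraries. Abca1, Adgre1, Gulp1, Mertk, Sall1, Slc40a1, Stab1, Timd4, Tmem119 and the Y-linked genes fall outside this rule and were named after their values were seen. Gene positions come from GENCODE M39. Alternatives varied the UMI, gene and mitochondrial limits, doublets, gates, pooling, pseudocount, CPM minimum, thinning and detection limit. Python 3.11.15, NumPy 2.4.6, SciPy 1.17.1 and pandas 2.3.3 were used.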

Additional observations from a re-analysis of the deposited data

Results flagged for a closer look

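The eGFP level of members relative to mesenchyme lay on opposite sides of 1 in the 2 libraries, below it in dual-enSERT-1 (0.412) and above it in dual-enSERT-2 (2.92). The difference between the libraries was not tested, since each construct has 1 library. The mesenchyme level in the ratio was 149 CPM in dual-enSERT-1 and 26.7 CPM in dual-enSERT-2, whereas the member levels were 61.7 and 78.1 CPM.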

How the results depend on the processing

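No paired analysis was possible because each group has 1 library. The 480 named-gene folds recomputed under alternatives all kept their sign and stayed past the fold limit. These genes had been picked for the largest folds of the same contrast, so this outcome was largely set by the choice. The level of the 70-gene mesenchyme list in members over mesenchyme, 0.337 in dual-enSERT-1 (0.278 in dual-enSERT-2), moved in dual-enSERT-1 to 0.375 and 0.328 with minima of 5 and 15 macrophage UMIs, 0.217 without Scrublet doublets, 0.128 without members that passed another gate, 0.135 in C1q members, 0.241 as a mean over barcodes and 0.241 over the 27 restricted genes. In dual-enSERT-2 it was 0.324 with a minimum of 5, 0.171 without members that passed another gate, 0.180 in C1q members, 0.296 without Xist members and 0.171 over the restricted genes. In dual-enSERT-1 eGFP was 49.8, 46.3 and 45.7 CPM without Scrublet doublets, without members that passed another gate and without the barcode highest in eGFP, and mCherry was 158, 161 and 208 CPM without Scrublet doublets, without members that passed another gate and in C1q members. In dual-enSERT-2 eGFP was 99.8 CPM in C1q members, and mCherry was 57.7 CPM without the barcode highest in mCherry. C1q members without another gate numbered 35 and 15. The 855 genes higher than in other barcodes became 1721 with no CPM minimum and 453 at 50 CPM. The 554 lower ones became 1357 and 292, and 832 without members that passed another gate, 855 against mesenchyme and 939 for C1q members. Between libraries the 52 higher genes became 97 for C1q members, and the 57 lower ones 96 without Scrublet doublets and 129 for C1q members. Of 80 recomputed log2 folds of the genes named between libraries, 13 changed sign. In C1q members these were Ppbp (-1.86), Ptprm (-1.11), Zfhx4 (-0.14), Nfia (-0.53), Dach1 (-0.61), H2-Aa (1.35) and Ikzf2 (1.71). Of these only Nfia was above 20 CPM in C1q members of both libraries, at 23.3 and 34.1 CPM. H2-Aa, at 1.55 and 0 CPM, and Ppbp, at 0 and 2.63 CPM, each rested on 1 UMI, so these reversals carry little weight. Without members that passed another gate they were Ppbp (-1.64), Ptprm (-0.40), Fbxl7 (-0.46) and Dach1 (-0.99), and without Scrublet doublets Ppbp (-3.79) and Ptprm (-0.20). No other recomputed result changed direction. Subsets by C1q, Xist and single barcodes and the restricted genes were chosen after seeing the data, and the cause of each shift was not tested.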

Other observations

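Red blood cell barcodes of dual-enSERT-2 divided by the same RNAs as the members. Of 1637 such barcodes 525 had 3 or more Xist UMIs, with 5.81 CPM of Y-linked RNA, and 458 of these had no Y-linked UMI. They were at 0.990 CPM of eGFP and 0.396 CPM of mCherry, against 8.03 and 7.83 CPM in the other 1112. In mesenchyme of dual-enSERT-2, 12 of 4163 barcodes had 3 or more Xist UMIs, and 11 of these 12 also had a Y-linked UMI.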
